A study of Mus musculus with 5 samples.

Results

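The nuclear genes of respiratory complex I were described here in satellite cells, the muscle stem cells that lie under the basal lamina of the muscle fiber, from wild-type and mdx mice. The members were all protein-coding genes of the expression table whose symbol begins with Nduf followed by a, b, c, s or v, which gave 46 of 22683 genes. Of these, 36 encode subunits of the complex, 8 belong to the Ndufaf series of assembly factors, and 2 carry the name but are placed outside the complex, Ndufa4 and Ndufa4l2. The rule uses the symbol and gene type and no measured value, although the family was picked with earlier results of these data known.

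The study sequenced total RNA from quiescent satellite cells purified by flow cytometry, with 2 wild-type libraries and 3 libraries from mdx mice, the dystrophin-mutant strain used as a mouse model of Duchenne muscular dystrophy. Each library was prepared from 10000 to 20000 sorted cells with a stranded low-input kit for total RNA. The sources used here give neither age, sex, strain background, sorting gate or muscle of origin nor a statement that each library is a different mouse, and p-values accordingly reflect the variation among these 5 libraries only. The 2 genotypes also differed in the sex-linked transcripts: Xist was at 30235 and 30176 normalized counts in wild type against 0, 0 and 12 in mdx, and Ddx3y at 9 and 0 against 966, 946 and 827, so genotype and sex cannot be told apart.

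Complex I (NADH:ubiquinone oxidoreductase) is the entry point of electrons from NADH into the mitochondrial respiratory chain. Its core subunits, encoded partly in the nucleus and partly in mitochondrial DNA, carry the flavin, the iron-sulfur clusters and the proton-pumping channels, while the accessory subunits surround and stabilise them. The peripheral arm projects into the matrix and the membrane arm lies in the inner membrane, and dedicated assembly factors join the modules and then leave. Quiescent satellite cells are known for a low rate of respiration compared with cycling myoblasts.

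Library totals ranged from 12473348 to 16825045 normalized counts. The members together held 22182 and 24288 in wild type and 11261, 11673 and 14438 in mdx. As shares of the library total, in ppm, these were 1458 and 1444 in wild type and 706.9, 935.8 and 1036 in mdx. Every mdx library therefore lay below both wild-type libraries on either scale. Markers of the sorted cell and of other cells moved with genotype as well. The summed values of 10 satellite cell markers were 89338 and 76914 in wild type and 37573 to 54070 in mdx, and 6 were called lower and 2 higher. Much of the gap in the sum came from Sdc4, at 30886 and 27833 in wild type against 3261, 2633 and 2916 in mdx. Pax7 was not called and went the other way, at 9103 and 7644 against 12767, 9751 and 14989. The 2 called higher were Itga7 and Cdh15, so the markers did not move as 1 set. Of 10 endothelial markers, all 10 were higher in mdx, with sums of 390 and 499 against 14987 to 21118, and 4 of them were at 0 in each wild-type library (Emcn and Cldn5 in both, with Tie1 and Flt1 or Kdr and Esam). Of 10 macrophage markers, 8 were higher, with sums of 416 and 675 against 10229 to 15199, and 6 and 5 of them were at 0 in the wild-type libraries (Mrc1, C1qa, C1qb and Itgam in both). Of 10 markers of fibro-adipogenic progenitors, the connective tissue cells of muscle, 9 were higher, with sums of 17350 and 9302 against 80244 to 142950, and Pdgfra and Ly6a were at 0 in wild-type replicate 1. Of 10 myofiber markers, 2 were higher, with sums of 1681 and 1243 against 3070 to 6138, and of 5 erythroid markers 1 was higher, with sums of 8 and 15 against 49 to 837, and Hba-a1, Hba-a2, Hbb-bt and Alas2 were at 0 in both wild-type libraries. Kdr, Tie1, Emcn, Cldn5, Mrc1, C1qa, C1qb, Itgam and Alas2 were under 10 in both wild-type libraries and passed the filter on low values only through mdx. Egfl7, Esam, Flt1, Adgre1, Ptprc, Pdgfra, Ly6a and Pi16 reached 10 in only 1 wild-type library, so they also needed mdx to pass. The calls of all these genes are counted above but are not read as support for a difference. The part of these other cells in the differences below was not tested, and in bulk libraries fewer cells of a type and less RNA per cell cannot be told apart.

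Promoter sequence is shown for members from both ends of the fold changes described below. Windows from 250 bases before to 50 bases after the annotated start were available for 40 of the 46 members in RefSeq (GRCm38.p6). Ndufa6 and Ndufa13, which had the smallest p-values of the family, are given whole, 5′ to 3′ on the strand of the gene. Capitals in the first mark the letters GCATGCGC, part of the site of the nuclear respiratory factor NRF1, beginning 83 bases before the start. The second window has no match to the letters of NRF1, ETS (CCGGAAGT), YY1 (AAGATGGC) or the cyclic AMP response element (TGACGTCA) on either strand. This window lies inside the span of the gene in the expression table (69894180 to 69902558), so sequence upstream of that span was not searched. The same holds for Ndufs7, shown in part below (span 80249121 to 80256793).
Ndufa6 (chr15:82354242-82354541, minus strand): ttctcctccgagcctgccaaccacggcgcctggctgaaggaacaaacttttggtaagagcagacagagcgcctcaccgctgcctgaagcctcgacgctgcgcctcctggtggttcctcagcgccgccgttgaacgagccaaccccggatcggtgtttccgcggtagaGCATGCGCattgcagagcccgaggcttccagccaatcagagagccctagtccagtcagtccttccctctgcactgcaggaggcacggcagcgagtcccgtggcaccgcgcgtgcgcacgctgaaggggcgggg
Ndufa13 (chr8:69901971-69902270, minus strand): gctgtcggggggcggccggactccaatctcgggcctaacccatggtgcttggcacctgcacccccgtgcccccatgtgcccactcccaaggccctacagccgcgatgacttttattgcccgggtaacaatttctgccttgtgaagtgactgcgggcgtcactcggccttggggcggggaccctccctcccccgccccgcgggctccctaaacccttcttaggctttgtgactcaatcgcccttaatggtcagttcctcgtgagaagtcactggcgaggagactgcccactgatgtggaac

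The next 8 sequences are the members whose window held the YY1 letters, which are in capitals, and each is cut to at most 30 bases around them. All 8 matches lie after the annotated start of the transcript, at positions 11 to 39 from it, and none before it. In 7 of the 8, all but Ndufaf8, the ATG inside the capitals is the annotated start codon of the gene.
Ndufs7 (chr10:80249462-80249491, plus strand): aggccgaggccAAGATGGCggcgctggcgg
Ndufs4 (chr13:114388045-114388070, minus strand): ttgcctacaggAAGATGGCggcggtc
Ndufs6 (chr13:73328433-73328460, minus strand): gggtcaccggcAAGATGGCggcggtgct
Ndufa9 (chr6:126849097-126849126, minus strand): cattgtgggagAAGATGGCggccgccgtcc
Ndufa3 (chr7:3617384-3617413, plus strand): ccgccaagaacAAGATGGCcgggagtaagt
Ndufc1 (chr3:51408915-51408944, minus strand): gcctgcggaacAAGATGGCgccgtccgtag
Ndufb8 (chr19:44555393-44555415, minus strand): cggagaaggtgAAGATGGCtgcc
Ndufaf8 (chr11:120098933-120098962, plus strand): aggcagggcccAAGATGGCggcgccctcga

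The comparison asked how these genes differ between mdx and wild-type satellite cells. Of the 46 complex I genes, 9 were called lower in mdx, none higher, and the other 37 did not pass the test (limma on log2(normalized count + 2), Benjamini-Hochberg adjusted p under 0.05 over the 18199 genes tested). All 46 passed the filter on low values. At an unadjusted limma p under 0.05, 15 were lower and 2 higher, against 2985 lower and 3948 higher of the 18199 genes tested. At the adjusted threshold, 10.3% of all genes tested were called lower and 14.6% higher. Among protein-coding genes the share called lower was 10.2%, against 19.6% of the members. The genes called lower were Ndufa6, Ndufb7, Ndufa5, Ndufa13, Ndufa4, Ndufb5, Ndufb10, Ndufs8 and Ndufs1, in order of fold change, with a range from 8.51-fold to 1.82-fold lower.

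The direction of all members, called or not, was counted next. The log2 fold change was below 0 in 36 of 46 members (78.3%), against 46.4% of all genes tested, and its median was -0.87 against 0.14 over all genes and 0.18 over protein-coding genes. All 3 mdx libraries were below both wild-type libraries in 27 members (58.7%), against 23.8% of all genes. They were above both in 2 members, Ndufs7 and Ndufa4l2, against 28.2% of all genes. Fold changes are on the log2(value + 2) scale, which understates the change of low genes.

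**Figure D1:**
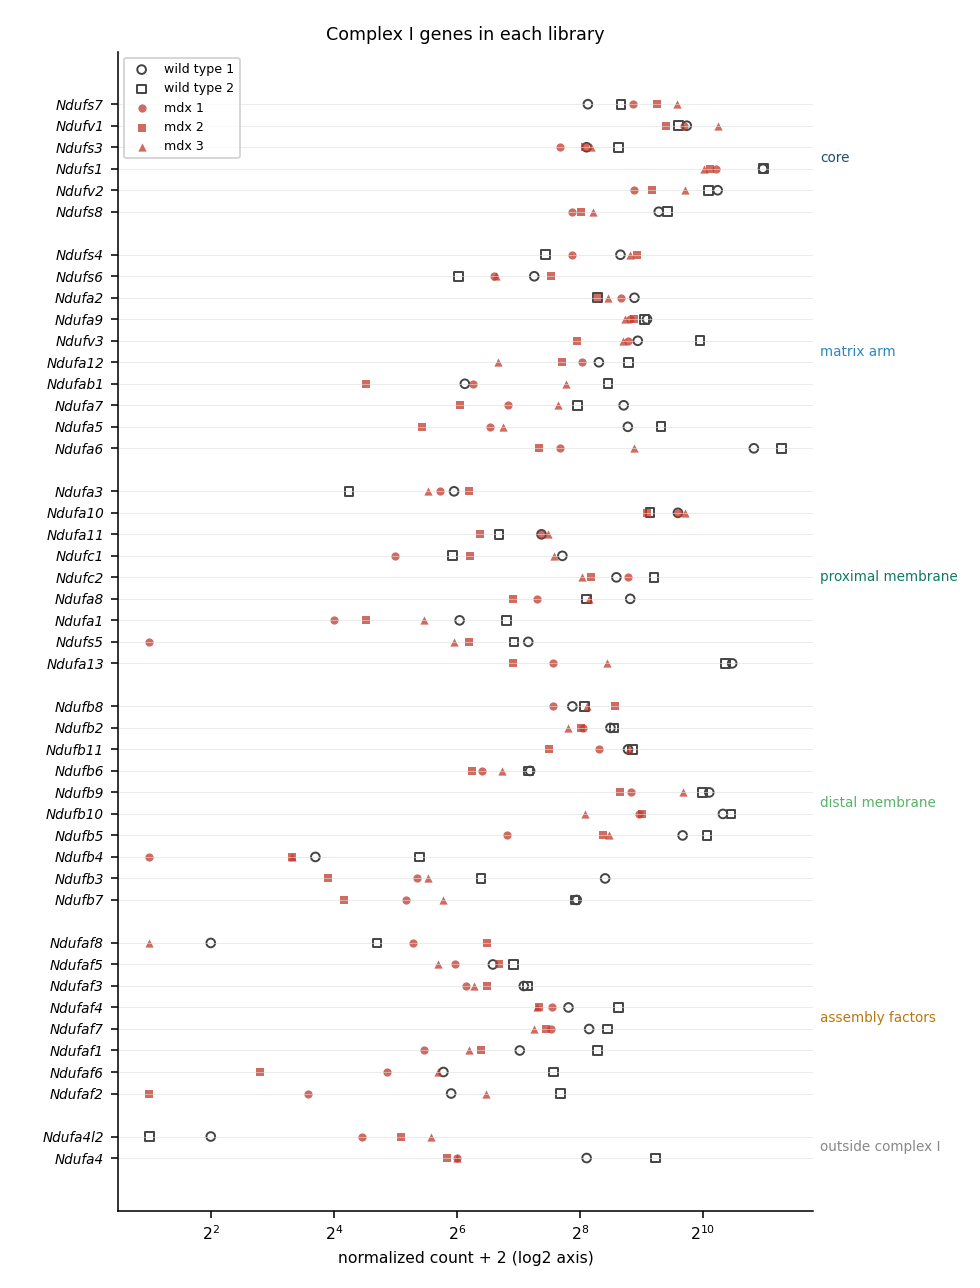
Normalized count + 2 (log2 axis) of 45 of the 46 members in the 2 wild-type libraries (open symbols) and the 3 mdx libraries (filled symbols), grouped by role in the complex. The filled symbols lie to the left of both open symbols in 26 of these and to the right of both in 2.

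The core subunits hold the catalytic machinery, and 2 of the 7 nuclear ones were lower in mdx. The log2 fold change was below 0 in 5 of the 7. Over all genes tested, 10.3% were called lower and 46.4% were below 0. Ndufs1 (chromosome 1, 63143596 to 63176822, mm10), the large iron-sulfur subunit that sits beside the NADH-binding site, was at 2010 and 2022 normalized counts in wild type against 1183, 1111 and 1034 in mdx. The 2 wild-type libraries nearly coincided and the 3 mdx libraries lay well below them. It fell by 0.86 on the log2 scale (SE 0.20, limma adjusted p = 0.0137). Ndufs8 (chromosome 19, 3908870 to 3912717), which carries iron-sulfur clusters near the quinone site, was at 620 and 683 in wild type and 232, 257 and 293 in mdx, again without overlap. It fell by 1.32 on the log2 scale (SE 0.33, limma adjusted p = 0.0187).

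Both core calls sat close to the threshold. With libraries rescaled to equal totals the limma adjusted p became 0.0783 for Ndufs1 and 0.0529 for Ndufs8. Without mdx replicate 3 it was 0.0518 for Ndufs1, and for Ndufs8 it was 0.0669 without wild-type replicate 2, 0.0533 without mdx replicate 1 and 0.0536 without mdx replicate 2. Exons of Ndufs1 overlap those of Eef1b2 and Ino80dos on the opposite strand over 498 of 8086 exon bases, and Eef1b2, a translation elongation factor gene, was at 9708 and 11478 in wild type and 3708 to 4281 in mdx. The strand setting of the authors' counting is not given in the sources used here, so reads from overlapping genes may not be separated.

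The other core subunits were not called. Ndufv2, an iron-sulfur subunit of the NADH-oxidising module, was at 1206 and 1087 in wild type and 467, 574 and 837 in mdx. The groups did not overlap, but the log2 fold change of -0.91 (SE 0.30) did not pass (limma adjusted p = 0.0534). Ndufv1, which binds NADH and the flavin, was at 851 and 774 against 825, 670 and 1213, so that its groups overlapped. The 95% interval of its log2 fold change ran from -0.56 to 0.78.

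Ndufs7, the subunit that holds the terminal iron-sulfur cluster, was the exception within the complex. It was at 278 and 404 in wild type against 462, 611 and 764 in mdx. All 3 mdx libraries were above both wild-type libraries, which was the case for no other subunit of the complex. Its log2 fold change of 0.84 had an SE of 0.35 and a limma adjusted p of 0.11, short of the threshold, although the gene was called higher when wild-type replicate 2 was left out.

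Among the 10 accessory subunits of the matrix arm, 2 were lower, 8 had a log2 fold change below 0 and the median was -1.03. The shares of all genes tested were 10.3% lower and 46.4% below 0. Ndufa6 (chromosome 15, 82350139 to 82354291), a small LYR-motif protein that anchors an acyl carrier protein on the matrix arm, was at 1814 and 2485 in wild type and 202, 160 and 470 in mdx. The highest mdx library was far below the lowest wild-type library. It fell by 3.09 on the log2 scale (SE 0.45), or 8.51-fold, with a limma adjusted p of 0.00144, the smallest in the family.

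Ndufa5 (chromosome 6, 24518666 to 24528013), an accessory subunit of the same arm, was at 437 and 636 in wild type and 91, 41 and 106 in mdx. It fell by 2.81 on the log2 scale (SE 0.57, limma adjusted p = 0.00788), with no overlap between groups. Ndufa7 was at 417 and 248 in wild type and 112, 64 and 199 in mdx. Its lowest wild-type library and highest mdx library were close, and the log2 fold change of -1.50 (SE 0.60) did not pass (limma adjusted p = 0.098). Ndufab1, the acyl carrier protein that Ndufa6 binds, ran from 68 and 349 in wild type to 75, 21 and 218 in mdx, with wide overlap. It shares 99.4% identity over 469 bases with the pseudogene Ndufab1-ps, so its counts are uncertain. Ndufs4, an accessory subunit whose loss causes Leigh syndrome, was at 402 and 172 against 232, 487 and 446 (log2 fold change 0.49, limma adjusted p = 0.504).

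In the proximal membrane arm, 1 of 9 accessory subunits was lower, 6 had a log2 fold change below 0 and the median was -0.57. The count of 1 is near the 10.3% of all genes tested, so it is not read as a result about the arm. A fold change below 0 was found in 46.4% of all genes tested. Ndufa13 (chromosome 8, 69894180 to 69902558), also known as GRIM-19, spans the inner membrane where the arms meet. It was at 1421 and 1316 in wild type against 187, 118 and 347 in mdx. The groups were far apart, and it fell by 2.78 on the log2 scale (SE 0.45), or 6.87-fold (limma adjusted p = 0.00251). Its exons overlap Tssk6 on the opposite strand over 375 of 1251 bases, and Tssk6 was at 0 and 0 in wild type and 75, 22 and 16 in mdx.

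The other members of this arm gave no call. Ndufa8, a twin-cysteine protein of the intermembrane space side, was at 449 and 274 in wild type and 156, 118 and 282 in mdx, where mdx replicate 3 overlapped wild-type replicate 2 (log2 fold change -1.01, limma adjusted p = 0.178). Ndufa1, an X-linked subunit, was at 64 and 110 against 14, 21 and 42 without overlap (log2 fold change -1.77, SE 0.95, limma adjusted p = 0.207). Ndufa10, which had the highest mean of this arm, was at 770 and 562 against 769, 542 and 833, and the 95% interval of its log2 fold change was -0.58 to 0.77. The fold of Ndufs5 rested largely on mdx replicate 1, since its values were 141 and 120 in wild type and 0, 71 and 60 in mdx.

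The distal membrane arm, at the far end of the proton-pumping part, had 3 of 10 accessory subunits lower, 9 with a log2 fold change below 0 and a median of -1.35. For all genes tested the shares were 10.3% lower and 46.4% below 0. Ndufb10 (chromosome 17, 24722060 to 24724478), a subunit with disulfide-bonded cysteines, was at 1280 and 1403 in wild type and 495, 513 and 270 in mdx. It fell by 1.71 on the log2 scale (SE 0.34, limma adjusted p = 0.00668), and mdx replicate 3 was the lowest library. Ndufb5 (chromosome 3, 32736990 to 32751566), a single-span membrane subunit, was at 812 and 1069 in wild type and 111, 329 and 354 in mdx, with replicate 1 the lowest. It fell by 1.98 on the log2 scale (SE 0.51, limma adjusted p = 0.0222).

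Ndufb7 (chromosome 8, 83566671 to 83571626), a twin-cysteine subunit like Ndufa8, had nearly equal wild-type values of 245 and 240 and mdx values of 34, 16 and 53. It fell by 2.89 on the log2 scale (SE 0.77, limma adjusted p = 0.0257). Some calls in this arm did not hold in all fits. With the trend of each library with transcript length and GC content removed, the limma adjusted p was 0.0565 for Ndufb10 and 0.11 for Ndufb5. Without mdx replicate 2 or 3 it was 0.0655 and 0.0632 for Ndufb5. For Ndufb7 it was 0.0652, 0.0539 and 0.0507 without mdx replicate 1, 2 and 3 in turn. Exons of Ndufb5 overlap those of Mrpl47 on the opposite strand over 616 of 4995 bases, and Mrpl47 was at 88 and 378 in wild type and 113, 128 and 145 in mdx.

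The remaining members of the distal arm were not called. Ndufb9, a LYR-motif subunit, was at 1097 and 1020 in wild type and 452, 402 and 813 in mdx (log2 fold change -0.998, SE 0.34, limma adjusted p = 0.0602), without overlap. Ndufb9 and Ndufv2 passed the threshold with a pseudocount of 10, with no filter and with a filter of 50, and without wild-type replicate 2 or mdx replicate 3. Ndufb8, the subunit commonly probed as a marker of assembled complex I, was at 233 and 268 against 186, 376 and 275, with mdx libraries on both sides of wild type (95% interval of the log2 fold change -0.89 to 1.09).

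**Figure D2:**
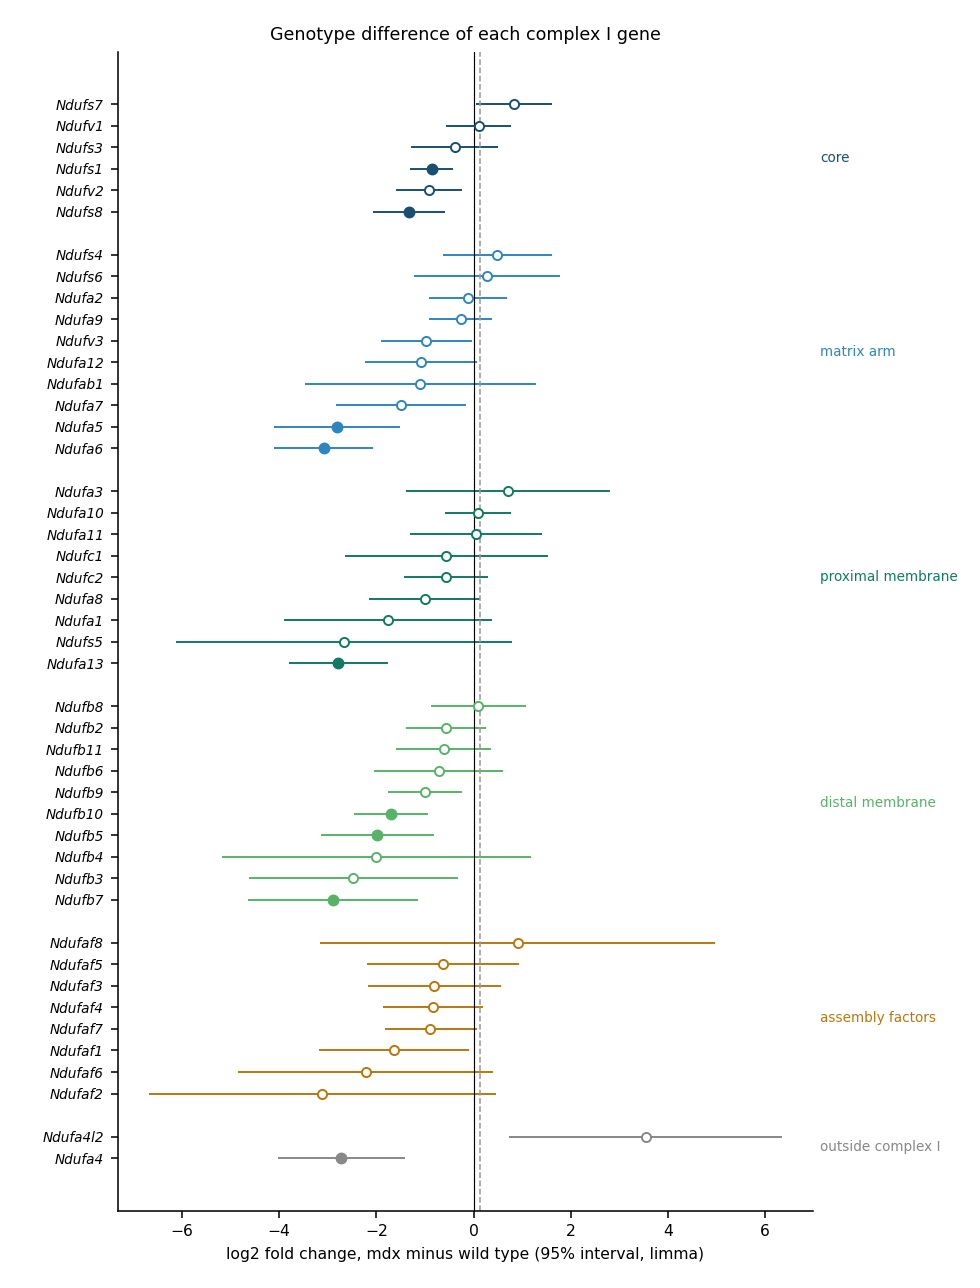
Log2 fold change of 45 members, mdx minus wild type, with its 95% interval from limma, where filled points are genes called lower and the dashed line is the median of all genes tested (0.14). Of 45 points, 35 lie left of 0, and the lowest called point is Ndufa6 at -3.09.

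None of the 8 Ndufaf assembly factors was called in either direction by limma, and at an unadjusted p under 0.05, 1 was lower and none higher. Still, 7 of the 8 had a log2 fold change below 0, with a median of -0.86, and in 5 all mdx libraries were below both wild-type libraries. Over all genes tested these shares were 46.4% and 23.8%. Ndufaf1, which helps build the membrane arm, was at 128 and 311 in wild type and 42, 82 and 71 in mdx (log2 fold change -1.64, SE 0.69, limma adjusted p = 0.112). Ndufaf7, an arginine methyltransferase of the matrix that had the highest mean of this group, was at 282 and 346 against 183, 172 and 151 (log2 fold change -0.89, limma adjusted p = 0.155). Neither gene overlapped between groups.

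The other assembly factors were not called either. Ndufaf2, a late-stage factor related to Ndufa12, was at 58 and 204 in wild type and 10, 0 and 87 in mdx, so its log2 fold change of -3.11 had an SE of 1.58 (limma adjusted p = 0.182). Ndufaf8 was at 2 and 24 against 37, 88 and 0, with the widest interval of the family, from -3.16 to 4.98. Ndufaf3 and Ndufaf4, which act together in an early step, had mdx ranges of 69 to 88 and 155 to 184, below their lowest wild-type values of 134 and 223.

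The 2 members outside the complex differed in direction. Ndufa4 (chromosome 6, 11900292 to 11907497), now known as a subunit of complex IV, was at 274 and 596 in wild type against 62, 55 and 62 in mdx. The mdx libraries were almost equal, and the gene fell by 2.72 on the log2 scale (SE 0.58, limma adjusted p = 0.00942). Without wild-type replicate 2 the limma adjusted p was 0.0683. Ndufa4l2, a related gene known to be induced in hypoxia, was at 2 and 0 in wild type against 20, 32 and 46 in mdx. All mdx libraries were above wild type at a low level (log2 fold change 3.54, SE 1.24, limma adjusted p = 0.0664), and its fold change depended on the pseudocount, at 4.81 with 0.5 and 1.92 with 10. It passed the filter on low values only through the mdx libraries, so its limma adjusted p of 0.0463 with the length and GC trend removed is not read as support for a difference.

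Levels were compared between genes as normalized counts per kilobase of the longest protein-coding transcript. On that scale the median member was at 324.5 in wild type and 159.4 in mdx. In wild type Ndufa6 was the highest at 3643, Ndufb10 was at 1833, Ndufb9 at 1504 and Ndufa13 at 1094. In mdx Ndufb9 was at 789.3, Ndufs7 at 622.9, Ndufa2 at 621.2 and Ndufb10 at 582.0. Ndufa6 went from rank 1 to rank 8, Ndufa13 from 5 to 21, and Ndufs7 from 21 to 3. Over the 46 members the Spearman correlation of the per-kilobase levels in the 2 genotypes was 0.79, a description across genes that share the same libraries.

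**Figure D3:**
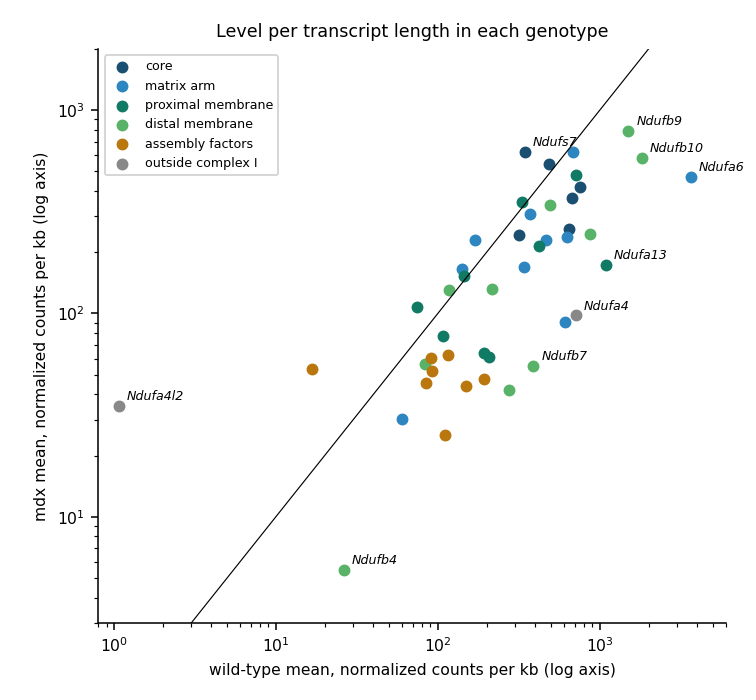
Mean normalized count per kilobase in mdx against wild type (log axes), 1 point for each of 45 members coloured by role, with the line of equality. Most points lie below the line, Ndufa6 and Ndufa13 among the farthest, while Ndufs7 and Ndufa4l2 lie above it.

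The ordering of libraries within a genotype was not uniform across members. Of the mdx libraries, replicate 3 was the highest for 24 members, replicate 2 for 13 and replicate 1 for 9, and wild-type replicate 2 was above replicate 1 for 27 of 46. Over the 46 members, log2 values correlated at 0.87 within wild type, 0.70 to 0.82 within mdx and 0.53 to 0.84 across genotypes.

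Many complex I genes are short, and short protein-coding genes tended to have lower values in mdx across the table. The longest protein-coding transcript had a median of 994 bases among members and 3191 among tested protein-coding genes. Of 23 members under 1000 bases, 5 were lower (21.7%), against 23.0% of all protein-coding genes of that length, and their medians were -1.01 and -0.98. On these 2 measures short members lay at the level of other short genes. All mdx libraries were below both wild-type libraries in 52.2% of short members, against 42.3% of short protein-coding genes. At 1000 bases or more these shares were 65.2% and 22.7%. Of 23 members of 1000 bases or more, 4 were lower (17.4%), against 9.60% of protein-coding genes, and their medians were -0.83 and 0.22. Across the members the Spearman correlation of log2 fold change was 0.27 with transcript length, 0.08 with GC content and 0.06 with mean level. It was 0.24 with length over 13783 protein-coding genes. These correlations are across genes of the same libraries, not replicates.

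**Figure D4:**
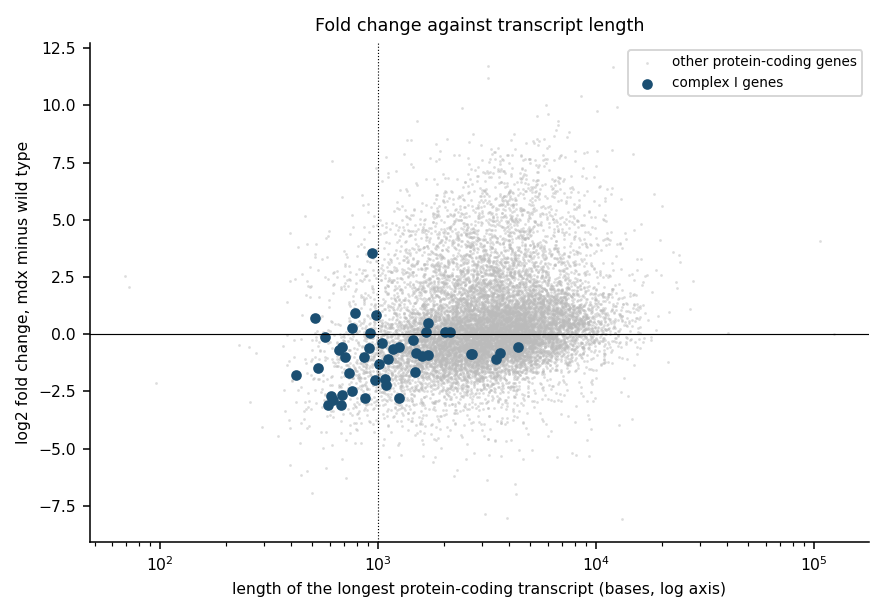
Log2 fold change, mdx minus wild type, against the length of the longest protein-coding transcript (log axis) for 45 members (large points) and other tested protein-coding genes (small points), with a dotted line at 1000 bases. Over all 46 members, those left of the line have a median of -1.01, beside -0.98 for all protein-coding genes there, and those right of it have -0.83 against 0.22.

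With the trend of each library with length and GC content removed, 7 members were lower and 1, Ndufa4l2, was higher, and the median was -0.67 against -0.05 over all genes. Over all genes, 58.7% of calls were higher in the reported fit and 47.0% with the trend removed. Ndufa6, Ndufa13 and Ndufa5 were lower in the reported fit and in all 13 alternatives.

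The members with the YY1 letters shown above had higher fold changes than those without. The motifs were picked after the fold changes had been seen, so the split is a description without a test. The YY1 letters AAGATGGC, on either strand, were in 8 of 40 member windows (20.0%), against 3.2% of all RefSeq windows and 4.9% of those of tested protein-coding genes. None of the 8 was called lower or higher. Of these, 2 had a log2 fold change below 0 (Ndufa9 and Ndufc1), and the median was 0.39, with a range from -0.56 to 0.91. The genotypes overlapped in all of the 8 but Ndufa9, where mdx was below, and Ndufs7, where mdx was above. Of the 32 members without the letters, 8 were called lower, 29 were below 0, and the median was -1.09, with a range from -3.11 to 0.11.

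Those 8 carriers include Ndufs7, the only core subunit with all mdx libraries above both wild-type libraries, together with Ndufs4, Ndufs6, Ndufa3, Ndufb8 and Ndufaf8. Ndufv1, also a core subunit with a log2 fold change above 0 (0.11), did not have the letters. The median of the carriers depended on single libraries, at -0.13 without wild-type replicate 2 and -0.08 without mdx replicate 2. In the same fits the members without the letters had medians of -0.99 and -1.01. Over all tested protein-coding genes the 2 groups lay closer together: 527 with the letters had a median of 0.02 and 12.3% lower, and 10111 without had 0.17 and 10.3% lower.

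**Figure D5:**
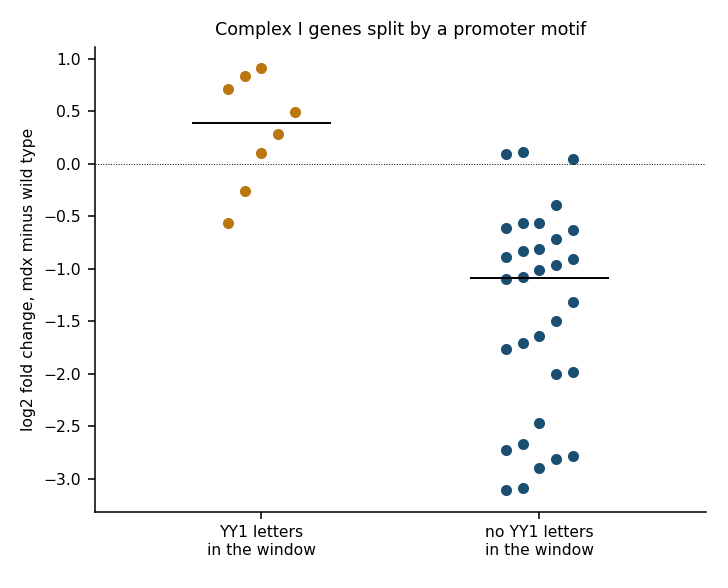
Log2 fold change, mdx minus wild type, of the 8 members with the YY1 letters in the promoter window and the 32 without, where each point is a gene and the bar is the median. The medians are 0.39 and -1.09, and the points overlap between -0.56 and 0.11.

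The other letters were counted in the same way. The NRF1 letters were in 5 windows (12.5%, against 3.0% of all windows and 5.6% of those of tested protein-coding genes), and the median log2 fold change was -0.83 with it and -0.91 without. The ETS letters were in 1 window (2.5%, against 4.3% and 8.5%), that of Ndufs3. The cyclic AMP letters were in 3 (7.5%, against 2.0% and 3.5%), those of Ndufa10, Ndufa11 and Ndufb2, with a median of 0.05 over these 3 and -0.97 over the 37 without. The GC-box letters GGGCGG of SP1 and KLF factors were in 21 windows (52.5%, against 38.2% of all windows and 67.1% of those of tested protein-coding genes), including both printed above, with medians of -0.97 with and -0.62 without. All letters were searched on both strands. A match is a description of letters in a window, not a bound site.

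Other genes of the pathway were counted for context, beside 10.3% lower and 14.6% higher among all genes tested. Of 13 symbols listed for further assembly factors of complex I, 10 were in the expression table. Of these, 2 were lower and none higher by limma (none higher at an unadjusted p under 0.05). Foxred1 was at 1159 and 503 in wild type and 302, 144 and 122 in mdx (log2 fold change -2.12, limma adjusted p = 0.0185), and Tmem126b, a partner of Ndufaf1, was at 353 and 583 against 203, 191 and 157 (-1.30, limma adjusted p = 0.0476). Of the 7 complex I subunits encoded in mitochondrial DNA, 6 were in the expression table. Of these 6, 3 were lower and none higher by limma (none higher at an unadjusted p under 0.05). mt-Nd1 was at 66303 and 105277 in wild type and 24227, 4209 and 12003 in mdx (log2 fold change -2.97, limma adjusted p = 0.0138). mt-Nd4 was at 31816 and 53859 against 7879, 1024 and 3771 (-3.73, limma adjusted p = 0.0104). The third, mt-Nd3, was at 38 and 46 in wild type and listed at 0 in all mdx libraries. It passed the filter on low values only through the wild-type libraries, so its call is not read as support for a difference. mt-Nd5 overlapped between groups, at 38235 and 54327 against 60851, 12171 and 30315, and mdx replicate 1 was the highest of all.

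The nuclear subunits of complexes II to V moved in the same direction, with 23 of 38 lower and 1, Cox6c, higher, and a median log2 fold change of -1.29. These 38 were the ones found in the expression table among 54 symbols listed. Of all genes tested, 10.3% were lower and 14.6% higher. Among protein-coding genes with a transcript under 1000 bases, 23.0% were lower, and this list was not split by length. Uqcrh, the hinge protein of complex III, was at 2255 and 3819 in wild type and 111, 157 and 193 in mdx (log2 fold change -4.27, limma adjusted p = 0.000101). Sdha, the flavoprotein of complex II, was at 4923 and 5375 against 1259, 1428 and 1175 (-2.002, limma adjusted p = 0.000148). Atp5j2, of the ATP synthase, was at 1952 and 1522 against 130, 93 and 55 (-4.27, limma adjusted p = 0.000272).

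Of 16 regulators of mitochondrial biogenesis, 1 was lower (Polg2, with a limma adjusted p of 0.0393) and 3 were higher, where 10.3% and 14.6% of all genes tested were, so these counts are not read as a result about the list. Ppargc1b, a coactivator of mitochondrial genes, was at 93 and 78 in wild type and 359, 476 and 320 in mdx (log2 fold change 2.13, limma adjusted p = 0.00811). Its partner receptor Esrra was at 42 and 54 against 244, 208 and 165 (2.05, limma adjusted p = 0.0303). Polrmt, the mitochondrial RNA polymerase, was at 258 and 86 against 461, 358 and 627 (1.64, limma adjusted p = 0.0472). Of 14 genes of iron-sulfur cluster assembly, 1 was lower and none higher by limma (none higher at an unadjusted p under 0.05). These counts do not exceed the shares of all genes tested and are not read as a result about the list. The gene called lower was Isca1, at 633 and 491 in wild type against 236, 68 and 125 in mdx (-2.12, limma adjusted p = 0.0235).

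Sequence copies and overlapping genes can blur the values of some members. Transcripts of another gene matched 10 of the 46 at 95% identity or more over at least 100 bases, for example Ndufs5 with BC002163 (99.4% over 319 bases) and Ndufs3 with Gm12251 (98.6% over 792 bases). None of the 9 called genes was among them. Exons of 19 members overlapped another gene, 17 of them on the opposite strand.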

How the data were processed

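Total RNA of sorted quiescent satellite cells was sequenced in 2 wild-type and 3 mdx libraries. The deposited table holds whole-number values whose totals and ratios are those of counts divided by library size factors and then rounded, and it is treated as a score (normalized count), not as raw counts. The submitters' processing notes name STAR 2.6.1d, featureCounts 1.6.3 of Subread, DESeq2 1.18.1 and mm10. No source used here gives the strand setting, the handling of multi-mapping reads or any filter. The members and gene lists were chosen with earlier results of these data known.

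The 18199 genes that reached 10 in 2 or more libraries were fitted with limma 3.58.1 (trend, robust) in R 4.3.3 on log2(value + 2), two-sided, with Benjamini-Hochberg adjustment over all of them and a threshold of 0.05. No count model was used because the values are rounded normalized counts. The fit was tested on simulated data. Values per library are given for the 3 members with the smallest p in each role group, members called higher and the member with the highest mean, and for up to 3 called genes of other lists; Ndufv1, Ndufs7, Ndufab1, Ndufs4, Ndufs5, Ndufb8, Ndufb9, Ndufaf8, Ndufaf3, Ndufaf4 and mt-Nd5 were added after their values were seen. Lengths, GC content and exons came from GENCODE M21, and copies from BLAST 2.17.0. Promoters are RefSeq windows, which Ndufs1, Ndufa2, Ndufb9, Ndufaf6 and Ndufa4l2 lacked. The values of 1 member are not reported here or plotted, and it stays in the counts, medians and ranks over the family. The depth in reads is not known, so no counting intervals are given. Alternatives changed the pseudocount (0.5, 10), the filter (none, 50), the scaling, the length and GC trend, the replicate block and each library in turn.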

Additional observations from a re-analysis of the deposited data

How the results depend on the processing

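The number of members called lower was 9 in the reported fit. It was 9 with a pseudocount of 0.5 and with quantile normalization, 11 with a pseudocount of 10, with no filter and with a filter of 50 (43 members tested), and 7 with equal totals and with the length and GC trend removed. Leaving out 1 library gave 6 to 13 lower, 0 to 1 higher (Ndufs7, without wild-type replicate 2) and a median log2 fold change of -0.90 to -0.74. The median was -0.69 with equal totals and -0.67 with the trend removed, where 1 member, Ndufa4l2, was called higher. The median of all genes was 0.14 in the reported fit, 0.31 with equal totals, 0.00 with quantile normalization and -0.05 with the trend removed, and the member median minus it was -1.01, -0.998, -0.89 and -0.62.

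In the fit with a replicate block, which in effect drops mdx replicate 3, 5 members were lower (Ndufa13, Ndufa5, Ndufa6, Ndufb10 and Ndufb5). The labels do not say whether the numbers pair the libraries. Deviations of same-numbered libraries from their group means had correlations of -0.014 and -0.017. With 2 wild-type libraries these deviations mirror each other, so the correlations cannot settle the question.

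Members that changed sign were all uncalled. They were Ndufa2 (0.074) with equal totals, Ndufa11 (-0.08) with quantile normalization, and Ndufa9 (0.17), Ndufa2 (0.81), Ndufc2 (0.29), Ndufc1 (0.006), Ndufb6 (0.19) and Ndufv1 (-0.022) with the trend removed. With the replicate block they were Ndufa11 (-0.16), Ndufa10 (-0.027) and Ndufv1 (-0.13). Leaving out 1 library gave ranges of -0.41 to 0.19 for Ndufa2, -1.45 to 0.33 for Ndufc1, -0.44 to 2.54 for Ndufaf8, -0.30 to 0.40 for Ndufa11, -0.33 to 0.90 for Ndufs6, -0.12 to 1.09 for Ndufs4, -0.13 to 0.32 for Ndufa10, -2.27 to 0.061 for Ndufab1, -0.14 to 1.57 for Ndufa3, -0.14 to 0.36 for Ndufb8 and -0.13 to 0.30 for Ndufv1. The cause was not tested.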
